A study of Mus musculus with 12 samples.

Results

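Messenger RNA of 9 enzymes that write DNA methylation or remove histone acetylation was measured in the mouse hypothalamus after chronic alcohol drinking. The genes were the DNA methyltransferases Dnmt1 and Dnmt3a and the histone deacetylases Hdac1, Hdac2, Hdac3, Hdac4, Hdac5, Hdac9 and Hdac11. They were taken by name and not by a measured value, though with earlier results of these data known. Every non-control probe that the array files assign to one of these symbols was kept. This gave 15 of 41174 probes, for 9 of 27827 gene names. Of the 15 probes, 14 passed the filter on low values, 12 were well above background on all 12 arrays and 0 were saturated. Dnmt3a had 3 probes, Hdac2 had 2 and Hdac9 had 4, and the other 6 genes had 1 each.

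The mice were male ICR mice, 3 weeks old at the start, all of them housed with a pair of drinking tubes. Both tubes held water on days 1 to 5. After that, water mice kept water in both tubes, and alcohol mice chose between water and either 5% or 10% alcohol. Sacrifice was on day 51 by the sample labels and on day 57 by the study's design. The RNA of 9 water mice was combined into 3 pools of 3, and that of 19 alcohol mice into 9 samples of 1 to 3 mice, each called a pool here also where it held 1 mouse. By their intake the alcohol pools fall into 3 labelled groups of 3, the low drinkers, the early high drinkers and the late high drinkers. The study lists 3 mice for each sample with less alcohol drunk and fewer than 3 for each with more. High and low drinker pools thus also differ in their number of mice. The 5% and 10% solutions are not told apart by the group labels, though the study lists how many mice of each went into every alcohol sample. Because whole hypothalamus was used, fewer cells of a type and less RNA per cell cannot be told apart.

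Each slide carried 4 arrays, and the groups were not spread evenly over the 3 slides. All water arrays were on slide 1, where the fourth place went to low drinker pool 1, the sole alcohol array next to water. The remaining low drinkers shared slide 2 with a pair of early high drinker arrays (pools 1 and 2). Every late high drinker array was on slide 3, beside early high drinker pool 3. The array of low drinker pool 2 stood apart in its dim spots, with a lower quartile of 63.2 intensity units against 22.3 to 34.0 on the other 11 arrays. Of 12 hypothalamic markers, 11 had a tested probe, and 10 of these, Hcrt, Pmch, Avp, Oxt and Agrp among them, were well above background on every array. Levels below are log2 intensities relative to the 75th percentile of the same array, so that 0 is the level of that percentile and a difference of 1 is a doubling. A level belongs to 1 probe and is not compared between probes or genes.

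DNA methyltransferases add a methyl group to cytosine, mostly where a guanine follows. Dnmt1 copies existing marks onto the new strand after replication, and Dnmt3a places new ones and stays present in mature neurons. Histone deacetylases remove acetyl groups from histone tails, which in general closes chromatin. Hdac1, Hdac2 and Hdac3 belong to class I, as does Hdac8, and work in nuclear corepressor complexes, Hdac4, Hdac5 and Hdac9 belong with Hdac7 to class IIa and move between nucleus and cytoplasm with calcium signaling, and Hdac11 is the lone member of class IV. In the brain these enzymes are known for their roles in memory, in the response to drugs of abuse and in the maturation of neurons and glia.

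The probes are 60 bases long, and some are given here as the array files write them, 5′ to 3′, in lower case with no base marked. They are the probes that stand for the methyltransferases and for Hdac2, and 1 probe from each of the places at which Hdac9 is read, which were not measured equally well.
Dnmt1 probe A_51_P195573: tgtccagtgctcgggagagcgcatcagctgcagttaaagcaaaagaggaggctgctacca
Dnmt3a probe A_52_P76146: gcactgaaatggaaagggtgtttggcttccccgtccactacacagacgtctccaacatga
Hdac2 probe A_51_P116007: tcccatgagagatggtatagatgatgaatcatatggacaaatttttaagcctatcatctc
Hdac9 probe A_51_P204031: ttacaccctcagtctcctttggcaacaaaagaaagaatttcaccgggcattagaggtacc
Hdac9 probe A_52_P76792: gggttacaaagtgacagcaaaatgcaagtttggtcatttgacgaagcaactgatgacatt
The first holds 33 G or C bases of 60, the second 31, the Hdac2 probe 21 and the Hdac9 probes 27 and 24. In the mm9 positions of the array files, the Dnmt1 probe spans chr9:20711973-20712341 on the minus strand, the Dnmt3a probe chr12:3906868-3907649 on the plus strand and the Hdac2 probe chr10:36713455-36713589 on the plus strand. These spans are 369, 782 and 135 bases long, longer than the probes, so the probe bases do not form 1 unbroken block of the genome there. Probe A_52_P76792 is placed over 32 bases alone. Probe A_51_P204031 of Hdac9 lies at chr12:35074257-35074316 and probe A_52_P76792 at chr12:34732447-34732478, both on the minus strand. Exon and UTR annotation of mm9 was not used here.

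Between the alcohol and the water pools, no call was made for any of the 9 genes. With limma over all 32376 probes tested, 0 of 14 member probes passed an adjusted p of 0.05, where 0.0% of all probes did. At an unadjusted p under 0.05 the count was also 0 of 14, where 5.53% of all probes passed. The differences of the 14 probes ran from -0.09 to 0.51, and 10 of 14 were higher with alcohol, against 5 of 14 under a fixed slide block. Their median was 0.10, beside 0.03 over all probes tested. By the brightest probe of each gene, 6 of 9 genes were higher. No member probe with a value on every array had all alcohol arrays on one side of all water arrays, which held for 1.31% of all such probes. Leaving out low drinker pool 1, the array on the water slide, brought 2 of 14 to a p under 0.05, where 9.04% of all probes then had one. These were the Dnmt3a probe A_52_P169048 (0.23, limma unadjusted p = 0.0462, adjusted p = 0.547) and the Hdac9 probe A_51_P204031 (0.31, limma unadjusted p = 0.0388, adjusted p = 0.542).

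**Figure D1:**
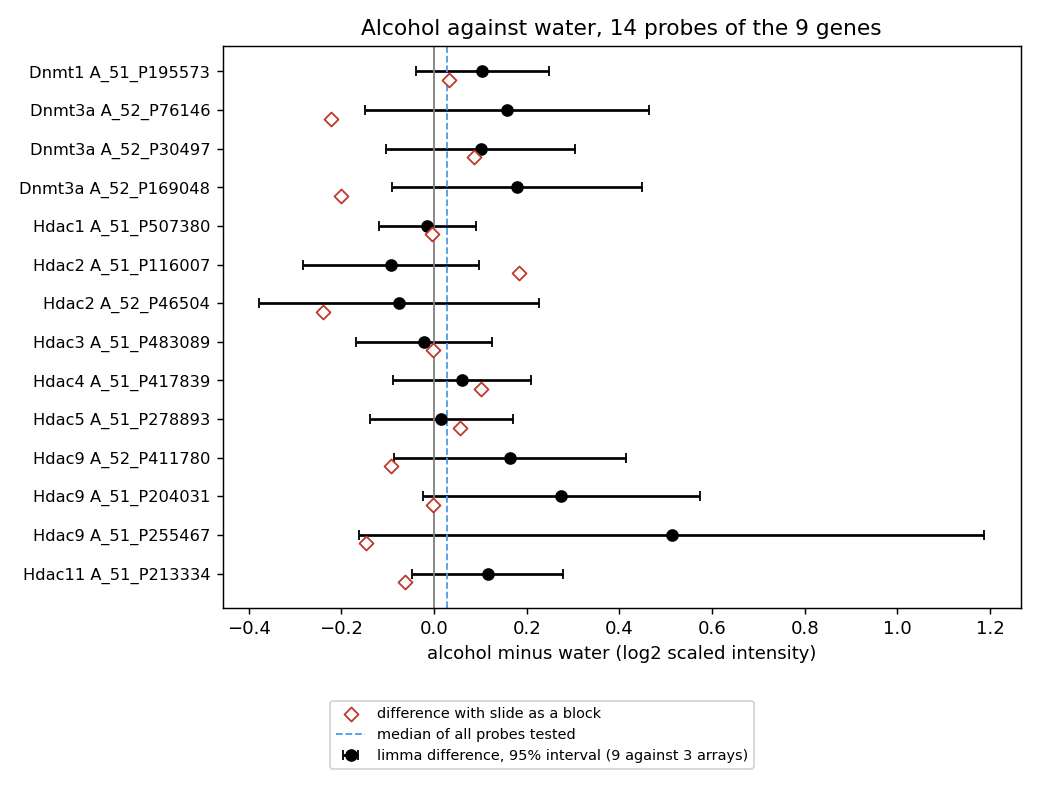
Differences between alcohol and water pools for the 14 tested probes of the 9 genes (x axis, log2 scaled intensity, alcohol minus water; black points with 95% limma intervals, 9 arrays against 3), with the difference when slide is a block (red diamonds) and the median of all probes (dashed line, 0.03). Every black interval spans 0, and the red diamonds, which for alcohol against water draw on low drinker pool 1 alone, lie on the other side of 0 for several probes, such as Hdac9 A_52_P411780 at -0.09.

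Dnmt1, the maintenance methyltransferase, varied little. Its level was -0.14, -0.02 and -0.05 in the water pools, -0.04, 0.14 and 0.12 in the low drinkers, -0.02, -0.09 and 0.01 in the early high drinkers and 0.14, 0.12 and -0.09 in the late high drinkers. Water and alcohol pools overlapped, although 6 of 9 alcohol pools lay above all 3 water pools. The difference was 0.10 ± 0.07 (SE, 95% interval -0.04 to 0.25, limma adjusted p = 0.819, exact permutation p = 0.118, 2-sided over 220 splits). On slide 1, low drinker pool 1 exceeded the water mean by 0.03.

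Dnmt3a, the de novo methyltransferase, was read by 3 probes. Its brightest, A_52_P76146, was at -1.29, -0.88 and -0.71 in water, -1.18, -0.59 and -0.67 in low drinkers, -0.60, -0.66 and -1.01 in early high drinkers and -0.88, -0.77 and -0.84 in late high drinkers. The water pools alone spread over most of this range, and low drinker pool 1 lay close to the lowest of them. The difference between alcohol and water was 0.16 ± 0.14 (SE, 95% interval -0.15 to 0.46, exact permutation p = 0.323), and without water pool 1 it was -0.0054. A fixed slide block gave -0.22. A second probe, A_52_P30497 (chr12:3912590-3912649, mm9, plus strand), was at -1.25, -1.12 and -0.90 in water and from -1.11 to -0.67 in the alcohol pools, which lay inside the water range but for late high drinker pool 2. It differed by 0.10 ± 0.09 (SE).

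The third and dimmest Dnmt3a probe, A_52_P169048 (chr12:3908227-3908286, mm9, plus strand), gave close values in water, -3.43, -3.44 and -3.40. It was at -3.62, -2.86 and -3.38 in low drinkers, -3.38, -3.16 and -3.32 in early high drinkers and -3.11, -3.15 and -3.20 in late high drinkers. In 8 of 9 alcohol pools it lay above all water pools, and in low drinker pool 1, the one on the water slide, it lay below all of them. The difference was 0.18 ± 0.12 (SE, exact permutation p = 0.205), and -0.20 under a fixed slide block. The probe was thus higher away from slide 1 and not on it, and slide and treatment cannot be told apart for those 8 pools.

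Of Hdac1, Hdac2 and Hdac3, Hdac1 varied least. Read at chr4:129193507-129193578 (mm9, minus strand), it was at 1.94, 2.03 and 1.97 in water, 1.98, 1.96 and 2.01 in low drinkers, 2.04, 1.96 and 1.90 in early high drinkers and 2.04, 1.95 and 1.86 in late high drinkers. The 12 values lay within 0.17, a 1.13-fold range, with full overlap of the groups. The difference between alcohol and water was -0.01 ± 0.05 (SE), with a 95% interval of -0.12 to 0.09, a fold change between 0.921 and 1.06. That interval does not take slide into account. Under a fixed slide block the difference was -0.0045 ± 0.08 (SE).

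Hdac2, the close relative of Hdac1 that is most studied in neurons, was at -2.66, -2.87 and -2.69 in water, -2.56, -2.88 and -2.97 in low drinkers, -3.01, -2.91 and -2.80 in early high drinkers and -2.82, -2.84 and -2.74 in late high drinkers on probe A_51_P116007. Of the 9 alcohol pools, the 4 on slide 2 lay below all water pools and 1, low drinker pool 1, above them. The difference was -0.09 ± 0.09 (SE, exact permutation p = 0.305), and 0.18 under a fixed slide block. The dimmer probe A_52_P46504 (chr10:36715306-36715365, mm9, plus strand), well above background on 10 of 12 arrays, was at -4.48, -4.48 and -4.33 in water and from -5.002 to -4.16 in the alcohol pools, the lowest being low drinker pool 3. It differed by -0.08 ± 0.14 (SE).

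Hdac3, the catalytic subunit of nuclear receptor corepressor complexes, was at 2.40, 2.32 and 2.26 in water, 2.33, 2.21 and 2.21 in low drinkers, 2.27, 2.36 and 2.17 in early high drinkers and 2.38, 2.49 and 2.32 in late high drinkers. The groups overlapped, and the difference between alcohol and water was -0.02 ± 0.07 (SE, 95% interval -0.17 to 0.12).

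**Figure D2:**
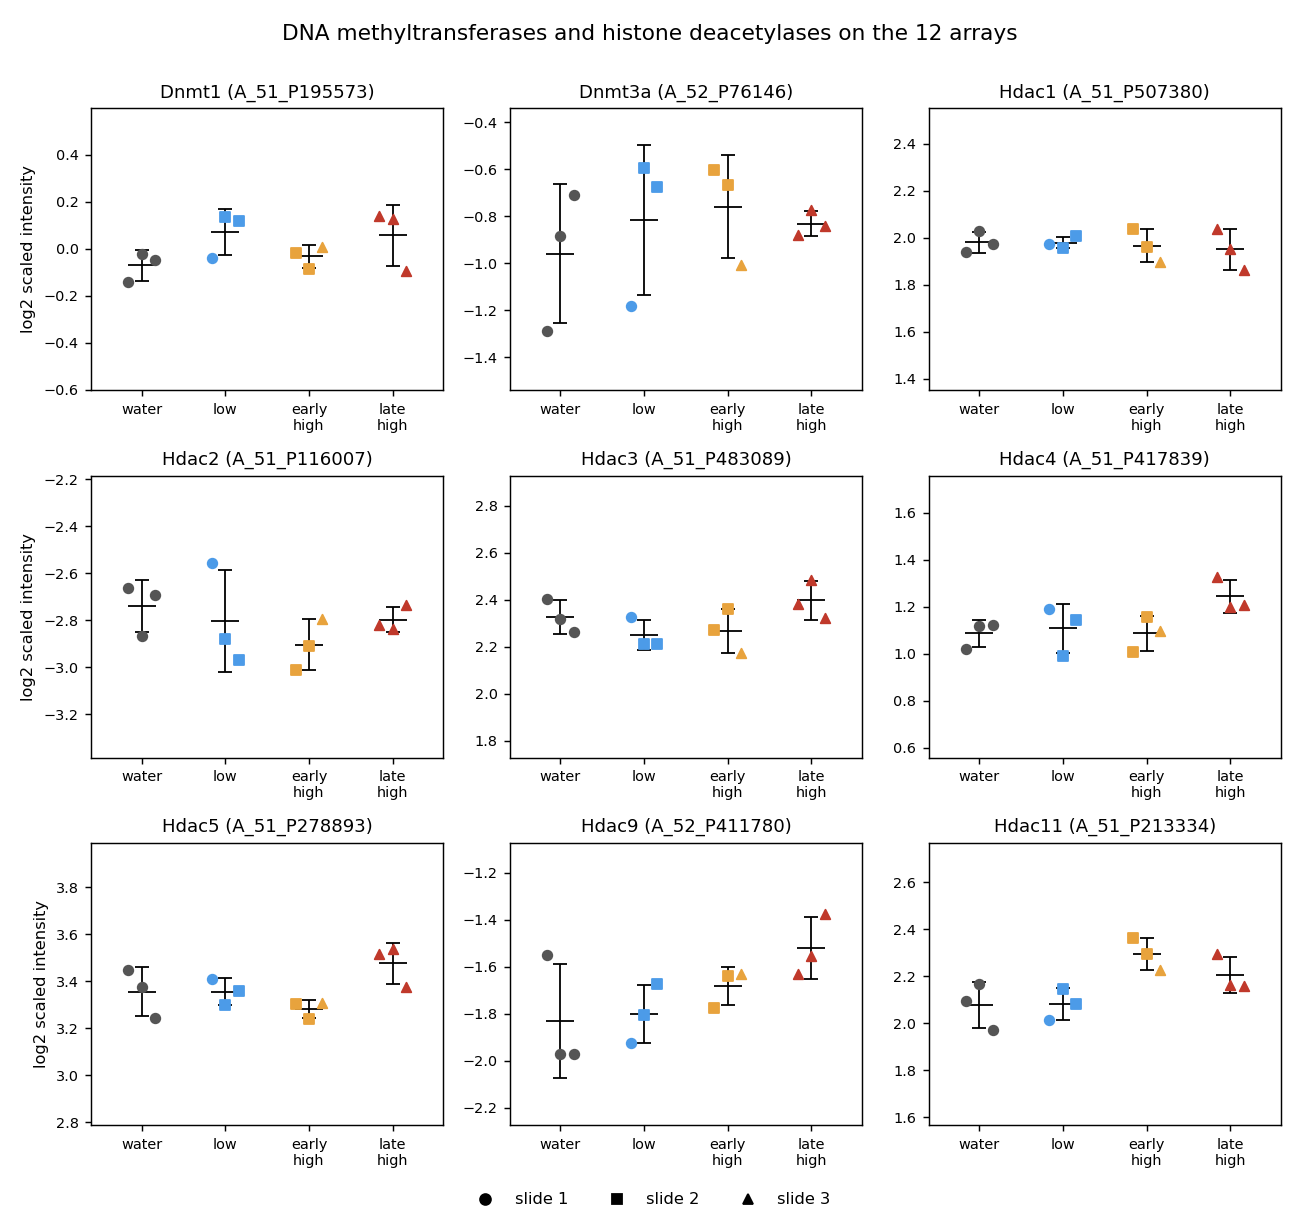
Levels of the 9 genes on the 12 arrays (y axis, log2 intensity relative to the 75th percentile of the array, the same span of 1.2 in every panel; points are pools, shapes are slides, bars are group mean and SD of 3 pools), with 1 probe per gene, the one with the highest mean. Hdac1 stays within 0.17 across the arrays, Hdac11 has its highest mean in the early high drinkers (2.23 to 2.36), and Hdac5 is higher in the late high drinkers (3.37 to 3.54) than in the early high drinkers (3.24 to 3.31).

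Among the class IIa enzymes, Hdac4, read at chr1:93829554-93829613 (mm9, minus strand), was at 1.02, 1.12 and 1.12 in water, 1.19, 0.99 and 1.14 in low drinkers, 1.01, 1.16 and 1.10 in early high drinkers and 1.32, 1.20 and 1.21 in late high drinkers. The 3 late high drinker pools were above all water and all early high drinker pools, and just above the highest low drinker pool. Over all alcohol pools the difference from water was 0.06 ± 0.07 (SE, exact permutation p = 0.359). Late high drinkers against water gave 0.16 ± 0.07 (95% interval -0.0030 to 0.32, limma unadjusted p = 0.0536, adjusted p = 0.327).

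Hdac5, known for restraining responses to cocaine in the reward system, was read at chr11:102057068-102057122 (mm9, minus strand). It was at 3.45, 3.37 and 3.24 in water, 3.41, 3.30 and 3.36 in low drinkers, 3.30, 3.24 and 3.31 in early high drinkers and 3.51, 3.54 and 3.37 in late high drinkers. Water and low drinker pools covered the middle of this range, and the early and late high drinkers did not overlap. The difference between alcohol and water was 0.02 ± 0.07 (SE), as the early high drinkers averaged 0.07 below the water mean and the late high drinkers 0.12 above it.

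Hdac9 is a class IIa gene with several transcripts, among them short ones that lack the catalytic domain, and its 4 probes form pairs at 2 places. Probes A_52_P411780 and A_51_P204031 lie 17.8 kb apart and carry the transcript name NM_024124. Probes A_51_P255467 and A_52_P76792 carry the name AK173017 and lie 321 kb further along the minus strand. The first, A_52_P411780 (chr12:35056507-35056566, mm9), was at -1.55, -1.97 and -1.97 in water, -1.92, -1.81 and -1.67 in low drinkers, -1.78, -1.64 and -1.63 in early high drinkers and -1.63, -1.56 and -1.37 in late high drinkers. Of the 9 alcohol pools 8 lay above the water mean, but water pool 1 was higher than 8 of the 9 alcohol pools. The difference was 0.16 ± 0.11 (SE, exact permutation p = 0.209), and 0.30 without water pool 1 (limma unadjusted p = 0.0229).

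The second Hdac9 probe, A_51_P204031, was at -3.23, -2.85 and -2.66 in water, -2.92, -2.29 and -2.64 in low drinkers, -2.41, -2.69 and -2.73 in early high drinkers and -2.80, -2.63 and -2.63 in late high drinkers. Again 8 of 9 alcohol pools lay above the water mean, the exception being low drinker pool 1 on the water slide, and the ranges overlapped. The difference of 0.27 ± 0.14 (SE, 95% interval -0.02 to 0.57, limma unadjusted p = 0.0679, exact permutation p = 0.0909) had the lowest unadjusted p of the 14 probes, and a fixed slide block gave -0.0032. It was 0.40 without water pool 3 (limma unadjusted p = 0.0214) and 0.28 with no scaling between arrays (limma unadjusted p = 0.0447). The mean of both probes was higher by 0.22 with alcohol (exact permutation p = 0.0182, 2-sided, where 0.00455 is the smallest the 220 splits can give). This mean is an alternative to the values of the single probes, and no such mean is given here for another gene. It rests on arrays of different slides. Under a fixed slide block the 2 single probes differed by -0.09 and -0.0032.

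The far pair of Hdac9 probes was close to background. A_51_P255467 (chr12:34735842-34735901, mm9) was well above it on 2 of 3 water and 7 of 9 alcohol arrays, with levels of -5.60, -5.79 and -5.70 in water, -5.85, -4.24 and -4.57 in low drinkers, -5.19 and -5.55 in the early high drinker pools 2 and 3 and -5.66, -5.38 and -5.07 in late high drinkers, and no usable value in early high drinker pool 1, which was left out of its fit. The highest values were those of low drinker pools 2 and 3, the arrays with the highest lower quartiles, 63.2 and 34.0 intensity units, and their part in this difference was not tested. Alcohol exceeded water by 0.51 ± 0.31 (SE, exact permutation p = 0.139). A_52_P76792 was well above background on 0 of 12 arrays and was left out of the test by the signal/noise minimum of 2. Without that minimum it had an unadjusted p under 0.05 in the low drinkers against water (limma unadjusted p = 0.0358, adjusted p = 0.315), on levels not well above background.

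**Figure D3:**
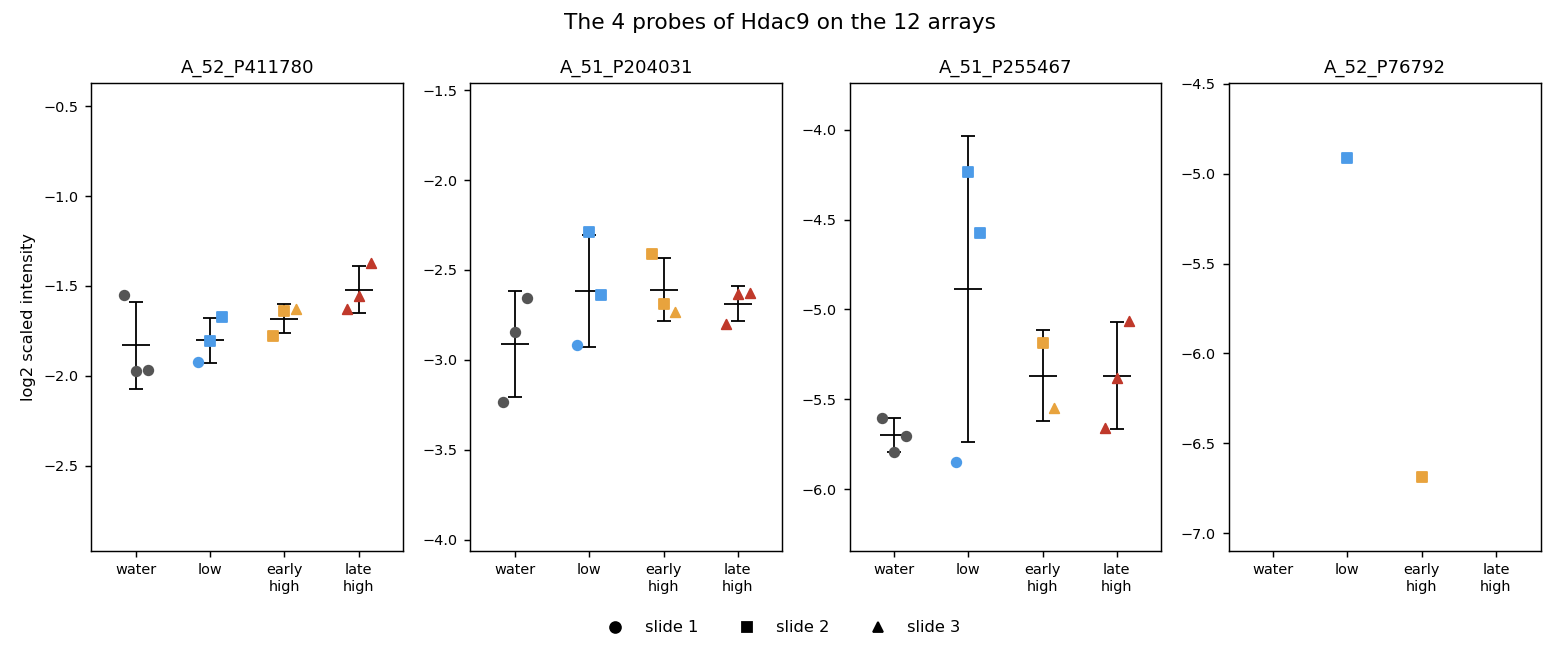
The 4 probes of Hdac9 on the 12 arrays (y axes, log2 intensity relative to the 75th percentile of the array, each spanning 2.6; points are pools, shapes are slides, bars are group mean and SD of the pools with a value). The 2 probes that carry NM_024124 were well above background on every array and show 8 of 9 alcohol pools above the water mean, whereas A_51_P255467 is highest in low drinker pools 2 and 3 at -4.24 and -4.57, and A_52_P76792 has a value on 2 arrays alone.

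Hdac11, the class IV enzyme, which is abundant in oligodendrocytes and neurons, was read at chr6:91124085-91124144 (mm9, plus strand). It was at 2.10, 2.17 and 1.97 in water, 2.02, 2.15 and 2.08 in low drinkers, 2.36, 2.30 and 2.23 in early high drinkers and 2.30, 2.16 and 2.16 in late high drinkers. All 6 high drinker pools lay above all 3 low drinker pools, and the early high drinkers also above all water pools. Over all alcohol pools the difference from water was 0.12 ± 0.07 (SE, 95% interval -0.05 to 0.28, exact permutation p = 0.136), and low drinkers against water gave 0.0038 ± 0.07. It was the one member probe of 13 with an unadjusted p under 0.05 in the limma F test over the 4 groups (limma unadjusted p = 0.0332, adjusted p = 0.314), where 14.4% of all probes with a value on every array passed and 0.0% passed after adjustment.

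Against water, the labelled groups gave few calls. In the low drinkers, by limma, 0 of 14 member probes had an unadjusted p under 0.05, against 9.63% of all probes, and the member median was 0.03 beside 0.05 over all. Without low drinker pool 1 there were 3 of 14, beside 21.7% of all probes in that fit, Dnmt1 (0.20), Hdac9 A_51_P204031 (0.45) and the near-background Hdac9 probe A_51_P255467 at 1.29 (limma unadjusted p = 1.4e-04, adjusted p = 0.00626), read on the pools with lower quartiles of 63.2 and 34.0. In the early high drinkers 1 of 14 did, Hdac11 at 0.22 ± 0.07 (SE, limma unadjusted p = 0.0132, adjusted p = 0.887), a 1.16-fold level, against 4.78% of all. In the late high drinkers 1 of 14 did, Hdac9 A_52_P411780 at 0.31 ± 0.12 (SE, limma unadjusted p = 0.0311, adjusted p = 0.265), a 1.24-fold level, against 15.7% of all. After adjustment 0 of 14 passed in each, while 0.39% of all probes passed in the low drinkers and 0.0% in the other groups. These comparisons share the 3 water arrays. In the late high drinkers 12 of 14 members were higher than water, with a median of 0.13 beside 0.0043 over all probes. Under a fixed slide block 8 of 14 were higher and 6 lower, with a median of 0.06 beside -0.09 over all probes, and all late arrays lay on another slide than water. Without scaling between arrays, which moves the median of all probes there by 0.12, 6 of 14 members were called instead of 1, beside 16.9% of all probes.

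The groups against water were also compared by overlap, among the 13 member probes with a value on every array. Low drinkers and water were apart for 0 of 13, beside 9.06% of all probes. Early high drinkers and water were apart for 2 of 13, Hdac11 and the dim Dnmt3a probe A_52_P169048, both higher, beside 16.4% of all. Late high drinkers and water were apart for 2 of 13, Hdac4 and again Dnmt3a A_52_P169048, both higher, beside 26.0% of all. None of these counts is above what the shares of all probes give over 13 probes, and 3 pools against 3 cannot reach an exact p under 0.10.

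The Hdac11 value in the early high drinkers was lost as a call with slide as a fixed block (0.15, limma unadjusted p = 0.303), without water pool 3 (0.16, limma unadjusted p = 0.0552) and without early high drinker pool 1 (0.18, limma unadjusted p = 0.0505). With slide as a random block it stayed a call (0.20, limma unadjusted p = 0.0295). The Hdac9 value in the late high drinkers was lost with slide as a fixed block (0.05, limma unadjusted p = 0.871) or a random block (0.29, limma unadjusted p = 0.0750), without water pool 2 or 3 (0.24 each, limma unadjusted p = 0.111 and 0.109), and without late high drinker pool 2 (0.33, limma unadjusted p = 0.0506) or 3 (0.24, limma unadjusted p = 0.111). The methods' t-test did not call it (unadjusted p = 0.122), and it was 0.45 without water pool 1. Marker genes of other cells also stood at other levels in these groups. The summed level of 6 of 6 measured oligodendrocyte markers was 7.75 to 7.83 in the early high drinkers, above the 7.56 to 7.71 of water, and that of 3 of 3 blood markers was 6.22 to 6.67 in the late high drinkers, below the 6.91 to 7.21 of water. Every marker of both lists was well above background on all arrays. Anterior pituitary markers, 3 of 5 measured ones well above background throughout, summed to -0.13 to 1.75 in the early high drinkers against 1.70 to 3.63 in water. Choroid plexus markers, 4 of 6 well above background throughout, summed to 1.17 to 1.33 in the late high drinkers against 1.34 to 1.75 in water. In the late high drinkers, striatum markers (4 of 4 well above background throughout) summed to 1.61 to 1.78 against 1.81 to 1.997 in water, and neuron markers (5 of 5) to 6.996 to 7.04 against 6.90 to 6.98. The part of these 6 shifts in the Hdac11 and Hdac9 values was not tested.

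Among the drinkers, more against less alcohol was compared as the 6 high drinker pools against the 3 low drinker pools. Hdac11 was the 1 member probe of 14 with an unadjusted p under 0.05. It was higher by 0.17 ± 0.06 in the high drinkers (SE, 95% interval 0.03 to 0.31, limma unadjusted p = 0.0226, adjusted p = 0.266), a 1.12-fold level. An exact permutation test, run for Hdac11 alone in this comparison, gave p = 0.0238, 2-sided over 84 splits. The smallest p these splits can give is 0.0119, and slide does not enter the test. It uses the same arrays as the call. Of all probes 15.1% had an unadjusted limma p under 0.05, with 0.293% after adjustment, and 0 of 14 member probes passed after adjustment. Hdac11 was also the 1 of 13 whose groups did not overlap, beside 4.62% of all. On slide 2, which held both groups, the early high drinkers at 2.36 and 2.30 exceeded the low drinkers at 2.15 and 2.08 by 0.21. The call was lost with slide as a fixed block (0.20, limma unadjusted p = 0.0850), without low drinker pool 1 (0.13, limma unadjusted p = 0.0961) and without low drinker pool 3 (0.17, limma unadjusted p = 0.0544), and stayed with slide as a random block (0.18, limma unadjusted p = 0.0232). Without low drinker pool 1, the near-background Hdac9 probe A_51_P255467 was lower by 0.96 in the high drinkers (limma unadjusted p = 5.9e-04, adjusted p = 0.0193), again against low drinker pools 2 and 3. Oligodendrocyte markers summed to 7.67 to 7.76 in the low drinkers and 7.69 to 7.93 in the high drinkers, with 1 of 6 higher at an unadjusted limma p under 0.05. By the same threshold 1 of 11 hypothalamus markers was higher and 1 lower, and 1 of 3 cortex markers was lower. Anterior pituitary markers were apart, at 2.79 to 3.23 in the low and -0.13 to 2.69 in the high drinkers, with 5 of 5 measured markers lower at an unadjusted limma p under 0.05, and 2 of 6 choroid plexus and 2 of 4 striatum markers were lower too. Astrocyte markers, 5 of 5 well above background throughout, were apart as well, at 6.149 to 6.193 in the low and 6.202 to 6.342 in the high drinkers. The part of these markers, and of the number of mice per pool, in the Hdac11 value was not tested.

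Late against early high drinkers set 3 pools against 3. Hdac5 was the 1 member probe of 14 with an unadjusted p under 0.05. It was higher by 0.19 ± 0.07 in the late high drinkers (SE, 95% interval 0.04 to 0.35, limma unadjusted p = 0.0212, adjusted p = 0.347), a 1.14-fold level. Of all probes 12.3% had an unadjusted p under 0.05 and 0.0% passed after adjustment. Hdac4 differed by 0.16 ± 0.07 (SE, limma unadjusted p = 0.0548) and Hdac3 by 0.13 ± 0.07 (SE, limma unadjusted p = 0.101). The groups did not overlap for 3 of 13 probes, Hdac4, Hdac5 and Hdac9 A_52_P411780, all higher in the late high drinkers, beside 21.5% of all. Across the 14 probes the median was 0.11, beside -0.03 over all probes tested.

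On slide 3, the late high drinkers exceeded early high drinker pool 3 by 0.17 for Hdac5, by 0.15 for Hdac4, by 0.23 for Hdac3 and by 0.11 for Hdac9 A_52_P411780, each with 1 early pool. The Hdac5 call was lost with slide as a fixed block (0.17, limma unadjusted p = 0.153), without early high drinker pool 2 (0.17, limma unadjusted p = 0.0678) and without late high drinker pool 1 (0.17, limma unadjusted p = 0.0625) or 2 (0.16, limma unadjusted p = 0.0723). It stayed with slide as a random block (0.19, limma unadjusted p = 0.0325). Anterior pituitary markers summed to 1.97 to 2.69 in the late against -0.13 to 1.75 in the early high drinkers, with 2 of 5 higher at an unadjusted limma p under 0.05, and blood markers to 6.22 to 6.67 against 6.71 to 7.04, with 1 of 3 lower. The part of both in the Hdac5 value was not tested.

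**Figure D4:**
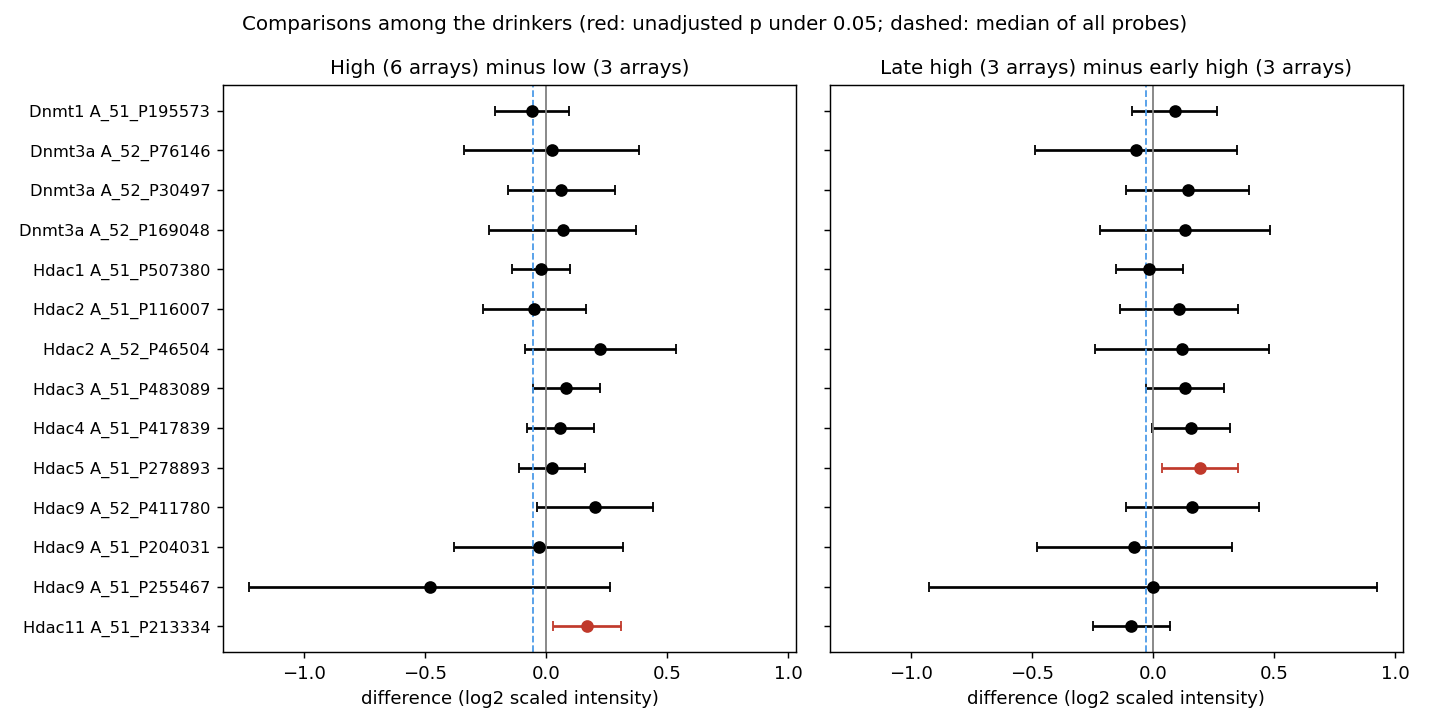
Differences among the drinkers for the 14 tested probes (x axes, log2 scaled intensity; points with 95% limma intervals), high minus low drinkers on the left (6 arrays against 3) and late minus early high drinkers on the right (3 against 3), with the median of all probes dashed (-0.05 and -0.03). The red intervals, Hdac11 at 0.17 on the left and Hdac5 at 0.19 on the right, are those with an unadjusted p under 0.05.

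Comparisons that stay within a slide are few, but they leave out differences between slides. On slide 1, low drinker pool 1 was inside the range of the 3 water pools for Dnmt1, Dnmt3a A_52_P76146, Hdac1, Hdac3, Hdac5, Hdac11, Dnmt3a A_52_P30497 and both brighter Hdac9 probes. It was outside that range for Hdac2 A_51_P116007 (0.18 from the water mean), Hdac4 (0.10), Dnmt3a A_52_P169048 (-0.20) and the dim probes Hdac2 A_52_P46504 (-0.24) and Hdac9 A_51_P255467 (-0.15). On slide 2, early high minus low drinkers, 2 arrays each, gave -0.18 for Dnmt1, -0.15 for Dnmt3a A_52_P169048, 0.10 for Hdac3 and 0.21 for Hdac11, while Hdac1, Hdac2 A_51_P116007, Hdac4, Hdac5 and Hdac9 A_52_P411780 lay between -0.06 and 0.03. On slide 3, the 3 late high drinker arrays minus the 1 early high drinker array gave 0.18 for Dnmt3a A_52_P76146, 0.05 for Dnmt1, 0.05 for Hdac1, -0.0025 for Hdac2 A_51_P116007 and -0.02 for Hdac11.

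Across the 4 groups, in the order water, low, early high and late high drinkers, the mean of Hdac9 A_52_P411780 went from -1.83 ± 0.24 (SD, n = 3 in each group) over -1.80 ± 0.13 and -1.68 ± 0.08 to -1.52 ± 0.13. Neighbors in this order overlapped, apart from early and late high drinkers. For Hdac11 the order from lowest to highest was water (2.08 ± 0.10), low drinkers (2.08 ± 0.07), late high drinkers (2.20 ± 0.08) and early high drinkers (2.30 ± 0.07), and only low and late high drinkers did not overlap among these neighbors. For Hdac5 it was early high drinkers (3.28 ± 0.04), water (3.36 ± 0.10), low drinkers (3.36 ± 0.06) and late high drinkers (3.47 ± 0.09), with overlap between all neighbors. Dnmt1 had its lowest mean in water (-0.07 ± 0.06) and its highest in the low drinkers (0.07 ± 0.10), again with overlap.

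The 9 genes did not move as 1 group across the arrays. Over the 12 arrays, which share slides and treatments, the highest Pearson correlation among them was 0.69 for Hdac3 and Hdac5, and the next 0.50 for Hdac4 and Hdac5. The lowest was -0.77 for Dnmt3a and Hdac2, followed by -0.66 for Hdac2 and Hdac11. The slide 2 arrays held the highest Dnmt3a and the lowest Hdac2 levels. Means on slides 1, 2 and 3 were -1.02, -0.63 and -0.87 for Dnmt3a and -2.70, -2.94 and -2.80 for Hdac2. The part of slide in this correlation was not tested. Among 17492 other genes well above background on all arrays, those most like each member were Gpatch4 and Prkd2 for Dnmt1 (r = 0.949 and 0.943), AK082584 for Dnmt3a (0.958) and Mtrr and Ttc9 for Hdac2 (0.912 and 0.894). Psmg4 and Acvr1b were most like Hdac5 (0.951 and 0.924), Zmym1 and Ecpas most like Hdac9 (0.947 and 0.931), and Prkar1b and Map2k2 most like Hdac11 (0.933 and 0.921). For Hdac1 they were NAP061794-1 and Krt17 (0.929 and 0.901), for Hdac3 4930570G19Rik (0.945), and for Hdac4 Dynlt1 and Elk4 (0.873 and 0.872). With so many genes and 12 arrays, high values of r are common, and between 37 and 244 genes exceeded 0.8 for each member.

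The remaining genes of DNA methylation and histone acetylation were taken from 10 lists with 87 genes, all of them measured. Against water, 3 of 87 had an unadjusted p under 0.05, 2 higher and 1 lower with alcohol, which is 3.45% of them beside 5.53% of all probes, and 0 passed after adjustment. Their median difference was 0.02, with 54 higher and 33 lower. The 3 were Sirt1, the NAD-dependent deacetylase, Chd3, the remodeling ATPase of the NuRD complex that holds Hdac1 and Hdac2, and Mta1, another NuRD subunit.

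Sirt1 was at 0.26, 0.25 and 0.24 in water, 0.17, 0.46 and 0.48 in low drinkers, 0.48, 0.57 and 0.44 in early high drinkers and 0.81, 0.72 and 0.61 in late high drinkers. Low drinker pool 1 was below water and the other 8 alcohol pools above it, with a difference of 0.27 ± 0.11 (SE, limma unadjusted p = 0.0258, adjusted p = 0.819) that became -0.08 with slide as a fixed block. The call was also lost with slide as a random block (0.18, limma unadjusted p = 0.149), with no scaling between arrays (0.28, limma unadjusted p = 0.0876) and when any 1 water pool was left out (limma unadjusted p = 0.0583 to 0.0658). In the late high drinkers alone it was 0.46 (limma unadjusted p = 4.8e-04, adjusted p = 0.108).

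Chd3 was at 4.50, 4.60 and 4.59 in water, 4.54, 4.82 and 4.83 in low drinkers, 4.85, 4.90 and 4.72 in early high drinkers and 4.89, 4.86 and 4.88 in late high drinkers. Low drinker pool 1 lay inside the water range and the other 8 alcohol pools above it. Its difference was 0.25 ± 0.07 (SE, limma unadjusted p = 0.00577, adjusted p = 0.819), -0.02 with slide as a fixed block and 0.18 with slide as a random block (limma unadjusted p = 0.0527).

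Mta1 was at 1.07, 1.03 and 1.10 in water, 0.85, 0.98 and 0.95 in low drinkers, 0.99, 0.88 and 1.01 in early high drinkers and 0.77, 0.70 and 0.90 in late high drinkers. Here low drinker pool 1 lay below the 3 water pools of its own slide, as did the other 8 alcohol pools. Alcohol and water pools were apart, either way, for 1.31% of all probes with a value on every array. Mta1 is 1 of 87 list genes, and only low drinker pool 1 shares a slide with water. The difference was -0.18 ± 0.07 (SE, limma unadjusted p = 0.0243, adjusted p = 0.819), and -0.22 with slide as a fixed block (limma unadjusted p = 0.0789). With no scaling between arrays it was -0.17 (limma unadjusted p = 0.0761). Without water pool 1 or 3 it was -0.17 and -0.16 (limma unadjusted p = 0.0613 and 0.0797).

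Of the related genes, Dnmt3b, the second de novo methyltransferase, differed by 0.05, and the Tet dioxygenases, which oxidize methylated cytosine, by 0.05 for Tet1, 0.05 for Tet2 and 0.08 for Tet3. The remaining zinc-dependent deacetylases differed by 0.0025 for Hdac6, 0.02 for Hdac7, -0.0092 for Hdac8 and 0.07 for Hdac10, and the acetyltransferase Crebbp by 0.06 ± 0.08 (SE). In the late high drinkers against water, Tet2 was higher by 0.18 and Crebbp by 0.21 (limma unadjusted p = 0.0490 and 0.0130, adjusted p = 0.316 and 0.196). Late against early high drinkers, Tet1 was lower by 0.36, while Tet3 was higher by 0.23 and Crebbp by 0.17 (limma unadjusted p = 0.00907, 0.0491 and 0.0342), with adjusted p from 0.322 to 0.403. An unadjusted limma p under 0.05 was found for 15.7% of all probes in late high drinkers against water. The share was 12.3% in late against early high drinkers.

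Rbbp4, a histone-binding subunit of the Hdac1 and Hdac2 complexes, was chosen after its values were seen. Its brightest probe, A_51_P307325, was at 3.67, 3.29 and 3.88 in water, 3.91, 3.59 and 3.22 in low drinkers, 2.68, 3.0005 and 2.99 in early high drinkers and 2.66, 2.65 and 2.77 in late high drinkers, so the 6 high drinker pools lay below all other pools. It was lower than water by 0.72 in the early and 0.92 in the late high drinkers (limma unadjusted p = 0.00369 and 7.3e-04, adjusted p = 0.887 and 0.108). A fixed slide block made these differences -0.27 and -0.57 (limma unadjusted p = 0.423 and 0.189). High against low drinkers it differed by -0.78, and by -0.72 with that block (limma unadjusted p = 8.4e-04 and 0.0172, adjusted p = 0.0874 and 0.251). The 4 probes of Rbbp4 did not move together. In the late high drinkers against water A_52_P296810 differed by -1.41, A_52_P382731 by 0.63 and A_52_P424767 by 0.04 (limma unadjusted p = 2.6e-04, 0.00133 and 0.602). Dnmt3l, a partner of the de novo methyltransferases also chosen after its values were seen, was lower by 0.31 in the late high drinkers (limma unadjusted p = 0.00784, adjusted p = 0.173).

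**Figure D5:**
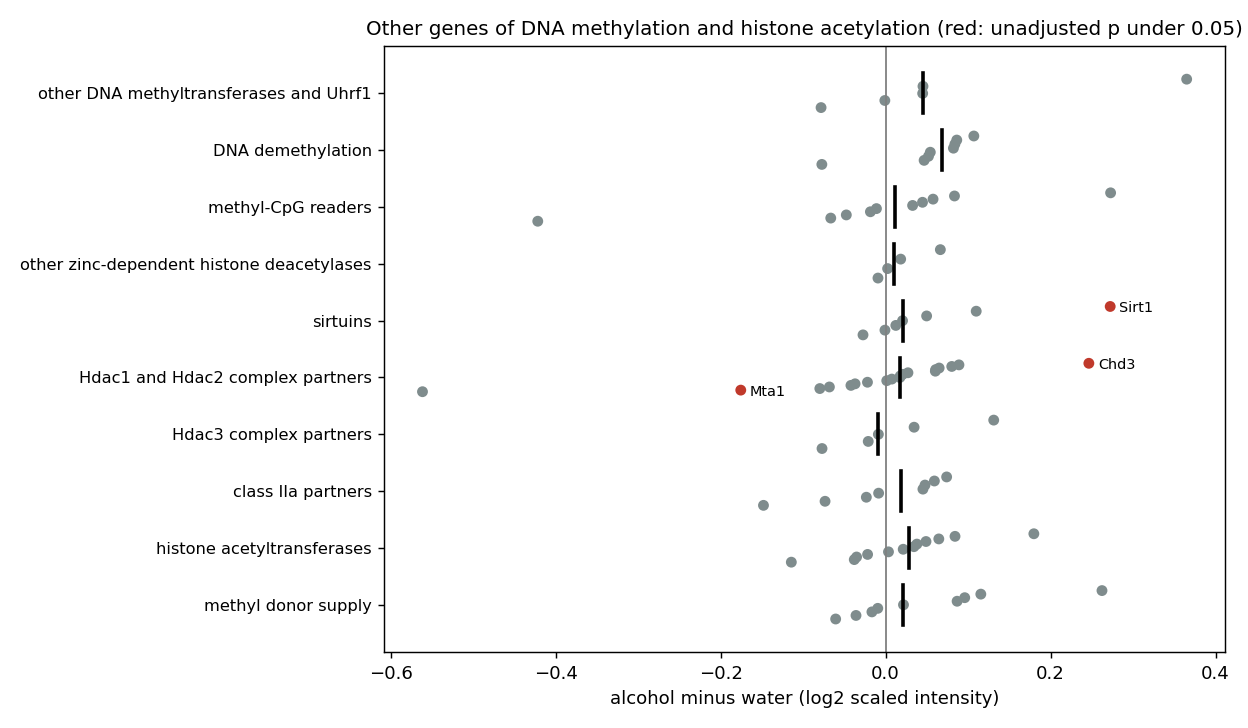
Differences between alcohol and water pools for the 87 other genes of DNA methylation and histone acetylation (x axis, log2 scaled intensity, alcohol minus water), by list, with 1 point per gene and a bar at each list's median. The 3 red points, Sirt1 (0.27), Chd3 (0.25) and Mta1 (-0.18), have an unadjusted p under 0.05, and the list medians lie between -0.0087 and 0.07.

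Against water at an unadjusted p under 0.05, 10 of 87 genes were higher and 6 lower in the late high drinkers, where 15.7% of all probes were called. The count was 0 of 87 in the low drinkers, beside 9.63% of all probes, and 3 of 87 in the early high drinkers, beside 4.78%. The other zinc-dependent deacetylases, the Hdac3 complex partners and the class IIa partners (the Mef2 factors and their kinases) had 0 genes called in any group against water. After adjustment 0 of 87 passed in any of the comparisons.

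Promoter sequences of RefSeq (GRCm38.p6, 250 bases before to 50 after a start) were at hand for 7 of the 9 genes, with 12 starts. The number of CpG dinucleotides in the 300 bases was 32 for Hdac4, 22 for Hdac11, 36 for Hdac2 and 18 for Hdac5, and at the richest start 47 for Dnmt3a and 33 for Dnmt1, beside a median of 7 over 32851 promoters. The starts of Hdac9 held 0 and 3. The GC box, GGGCGG or CCGCCC on the given strand, occurred in 8 of the 12 windows, where 35.7% of all windows held it, and in neither Hdac9 window. No methylation was measured here.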

How the data were processed

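Hypothalamic RNA pools, labeled with Cy3 alone, were hybridized to Agilent whole mouse genome arrays. The authors deposited the intensity of every spot, corrected for background by Agilent Feature Extraction (10.5.1.1 in the files, another version in the methods) and not scaled between arrays, and a table of intensity per probe. Here each spot's log2 intensity was set against the 75th percentile of its array over 43379 spots other than controls. Outlier spots and those with a signal below 2 times its error were left out, and spots of 1 probe were averaged. Probes measured on 2 or more of the 3 water arrays and 5 or more of the 9 alcohol arrays entered the tests (32376 probes, 29521 of them on all arrays).

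Comparisons used limma 3.58.1 in R 4.3.3 over all probes with Benjamini-Hochberg adjustment, with 2 groups for alcohol against water and 4 otherwise, beside 2-sided exact permutation tests. The probe of highest mean stood for a gene. Named were all members, list genes at an unadjusted p under 0.05 between alcohol and water that were well above background on all arrays, always Dnmt3b, Tet1, Tet2, Tet3, Hdac6, Hdac7, Hdac8, Hdac10, Sirt1 and Crebbp, and the 2 genes most correlated with each member. Members and lists were chosen with earlier results of these data known. Marker lists of hypothalamus, neurons, astrocytes, microglia, anterior pituitary, choroid plexus, blood, thalamus, cortex and striatum held 0 genes at an unadjusted limma p under 0.05 between alcohol and water, and that of oligodendrocytes held 1. Some genes that this rule names are not reported here. Alternatives covered scaling, background correction, the authors' table, filters, slide and replicate blocks, the methods' t-test, the probe of a gene and each array left out. The steps were tested on simulated data. P-values measure the spread between pools, and the number of arrays limits the precision. The day of sacrifice differs between the sample labels (51) and the study's design (57). Figures were drawn with matplotlib 3.10.9.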

Additional observations from a re-analysis of the deposited data

Results flagged for a closer look

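On the Dnmt3a probe A_52_P30497, the value of late high drinker pool 2 was distant from those of the remaining alcohol pools, at -0.67 with the nearest at -0.91, a gap of 0.528 of the whole range. Chance gives such a gap in about 1 of 20 groups, or 0.7 of the 14 probes checked. The other Dnmt3a probes gave this pool -0.77 and -3.15, within the range of the other alcohol pools.

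Hdac11 differed between high and low drinkers by 0.168 on the log2 scale (limma unadjusted p = 0.0226, adjusted p = 0.266), with 6 of 6 high drinker pools above the low drinkers. Hdac5 differed between late and early high drinkers by 0.192 (limma unadjusted p = 0.0212, adjusted p = 0.347), with 3 of 3 late pools above the early pools. The early high drinkers lay on the other side of the water mean from the late high drinkers for Hdac5 in 3 of 3 pools each, at -0.07 and 0.12, so that early minus late was -0.192. On slide 2 early against low drinkers gave 0.21 for Hdac11, and on slide 3 late against early gave 0.17 for Hdac5. The part of slide in these values was not tested further.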

How the results depend on the processing

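Of the tested differences, 341 values kept direction and side of the threshold, 27 lost a call, 2 gained one and 12 turned. With slide as a fixed block, which draws alcohol against water from low drinker pool 1 alone, the differences were -0.22 for Dnmt3a, 0.18 for Hdac2, -0.092 for Hdac9, -0.063 for Hdac11, -0.082 for Sirt1 and -0.024 for Chd3. The cause was not tested. As single arrays were left out, Dnmt3a ran from -0.0054 to 0.28, Hdac1 from -0.035 to 0.0096, Hdac3 from -0.055 to 0.015 and Hdac5 from -0.040 to 0.062. Hdac9 gained a call without water pool 1 (0.30, limma unadjusted p = 0.0229) and as the mean of 2 probes (0.22). With slide as a fixed block these 2 probes were at -0.092 and -0.0032.

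Counts of member probes at an unadjusted p under 0.05 are small, and 48 of their alternatives moved by over 1.5 times against 113 that did not. They are given with the share of all probes called in the same fit. Without scaling the count was 1 for alcohol against water (5.05%), 1 for low drinkers (8.47%), 6 for late high drinkers against water (16.9%), 3 for high against low (15.5%), 4 for late against early (16.3%) and 4 for the F test (16.0%). That setting moved the median of all probes by 0.12 in late high drinkers against water, 0.13 in high against low and 0.15 in late against early, and moved it by less than 0.1 elsewhere. Quantile normalization gave 1 for low (9.69%) and 2 for late high drinkers against water (15.8%), 4 for high against low (15.2%), 2 for late against early (11.5%) and 3 for the F test (15.0%). With slide as a fixed or random block the late high drinkers against water (7.88% and 10.7%) and the F test (6.62% and 8.81%) had 0. In the fixed block the single calls left were other probes, Hdac9 A_51_P255467 for the early high drinkers and for high against low, and Hdac3 for late against early. Normexp correction (Hdac9 A_51_P255467, 12.1%) and no signal/noise filter (Hdac9 A_52_P76792, 13.8%) gave 1 for low drinkers. With only probes well above background, late high drinkers against water (18.9%) and late against early (14.5%) had 2, and the methods' t-test gave 2 for late high drinkers against water (16.4%).

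As single arrays were left out, the counts ran from 0 to 2 for alcohol against water, 0 to 3 for low drinkers, 0 to 2 for early and 0 to 3 for late high drinkers against water, 0 to 3 for high against low, 0 to 2 for late against early and 0 to 3 for the F test. The highest counts came without low drinker pool 1 (alcohol, 9.04%, and low drinkers against water, 21.7%), without water pool 1 (early high drinkers, 4.40%), without low drinker pool 2 or late high drinker pool 3 (late high drinkers, 17.8% and 17.6%) and without low drinker pool 2 (high against low, where 3058 probes were called against 4893 with all arrays, and F test, 13.8%). For late against early the count of 2 came without early high drinker pool 2 (8.26%), late high drinker pool 3 (14.9%) or low drinker pool 2 (14.7%).

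Replicate numbers did not pair the samples: pools of the same number correlated from -0.09 to 0.18 in their deviations from the group means over 18 pairs, with a median of -0.0010. With the replicate block the count for low drinkers was 1 (10.7%) instead of 0, and it changed no other count. The levels of the near-background probes Hdac9 A_51_P255467 and Hdac2 A_52_P46504 are the least certain.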
